A study of Mus musculus with 8 samples.

Results

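Mitosis is carried out by a large set of proteins that are made shortly before a cell divides, and 60 mouse genes of this set were followed here in traced hair follicle stem cells. The 60 genes were chosen by symbol, from a list of genes for mitotic entry, the kinetochore, the spindle and cytokinesis, by a rule that uses no measured value, although the list was drawn up with earlier results of these data known. All 60 were found among the 46078 genes of the count table (Sgol1 under Sgo1, its newer symbol in the annotation), and all 60 passed the filter on low counts, as did 16495 genes in all.

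RNA had been sequenced from epidermal cells of mice with injured skin, which had been sorted by a flow cytometer. The mice were of the strain given as Lg5-egfp-ires-creert2/R26-tdTomato, in which an inducible Cre driven by the Lgr5 locus switches on a red fluorescent protein, so that traced cells are stem cells of the lower follicle and their progeny. A first group of 4 libraries, Treg-sufficient, came from mice with regulatory T cells (Treg cells, which restrain immune responses), and the other 4 libraries, Treg-depleted, from mice without them. Replicates 1 and 2 of each condition belonged to experiment 1, and replicates 3 and 4 to experiment 2. Skin injury and the reporter alleles were common to all 8 libraries. The sources used here do not state the kind of injury, the way or time of Treg cell removal, the interval from injury to sorting or the age of the mice. The labels do not tie replicates to separate mice, and the p-values therefore measure only the spread among these libraries. Xist, an RNA of female cells, stood at 1.69 and 2713 CPM (counts scaled to library size) in the Treg-sufficient libraries of experiment 1. That pair was thus not made from the same material. The Treg-depleted pair of experiment 1 had 1.89 and 72.0 CPM, and no library of experiment 2 exceeded 2.26 CPM. How much of the spread within any pair is technical was not tested. These were bulk samples, in which fewer dividing cells and less mitotic RNA per cell cannot be told apart.

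As background, entry into mitosis is driven by the kinase Cdk1 with cyclins A and B. Chromosomes condense, the kinetochore built on each centromere captures spindle microtubules, and the spindle checkpoint holds back anaphase until all are attached. Cdc20 then turns on the anaphase-promoting complex (APC/C), a ubiquitin ligase that marks securin and cyclin B for destruction, and the cell is cut apart at the midzone of the spindle. Most genes of this machinery are transcribed together in late S phase and G2, when the MuvB complex with B-Myb (the product of Mybl2) and FoxM1 binds the cell cycle homology region (CHR) of their promoters, often beside CCAAT boxes bound by NF-Y. Stem cells of the resting follicle divide rarely and enter the cycle at the start of hair growth or after wounding.

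The promoter sequences show what many of these genes have in common apart from their function, a property that the choice of genes did not use. RefSeq promoters (build GRCm38.p6, 250 bases before to 50 bases after the start site, 300 in all) were matched by symbol for 50 of the 60 genes, which gave 54 promoters. They were searched on both strands for the CHR letters TTTGAA or TTCGAA, for CCAAT and for the E2F letters TTTCGCGC or TTTGGCGC; none of these motifs contains another. A CHR match was present in 81.5% of the 54 promoters, against 19.2% of all 32851 promoters of that length. CCAAT was present in 75.9% against 37.4%, and at least 2 CCAAT boxes in 27 of the 54 promoters against 11.7% of all. CHR and CCAAT stood together in 68.5% against 7.52%, and the E2F letters in 5.56% against 0.813%. The promoters of Birc5, Mad2l1, Mybl2, Nuf2, Nusap1 and Pttg1 held none of the 3 motifs in this window (11.1% of the 54, against 50.5% of all). The RefSeq start site can differ from the gene start in the annotation used for coordinates. For Mad2l1 the window ended at base 66535270 and the annotated gene began at 66535390, so an absence holds only for the window searched. A match of letters is a description of sequence and was not tested for binding.

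The most highly expressed gene with both CHR and CCAAT was taken from 6 of the role groups, and its promoter is printed here 5′ to 3′ on the strand of the gene, with CHR, CCAAT and E2F matches in capitals (on the other strand a CHR match reads TTCAAA and a CCAAT box reads ATTGG). Mki67 is at chr7:135716330-135716629 (minus strand), Kif11 at chr19:37376132-37376431 (plus), Cenpf at chr1:189688037-189688336 (minus), Prc1 at chr7:80294201-80294500 (plus), Cdk1 at chr10:69352863-69353162 (minus) and Bub3 at chr7:131560120-131560419 (plus).
Mki67: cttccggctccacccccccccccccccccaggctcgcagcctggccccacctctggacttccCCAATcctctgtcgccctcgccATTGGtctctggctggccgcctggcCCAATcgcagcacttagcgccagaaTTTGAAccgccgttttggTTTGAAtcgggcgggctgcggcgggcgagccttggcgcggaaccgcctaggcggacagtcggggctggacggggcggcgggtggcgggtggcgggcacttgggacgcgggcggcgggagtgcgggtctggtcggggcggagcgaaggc
Kif11: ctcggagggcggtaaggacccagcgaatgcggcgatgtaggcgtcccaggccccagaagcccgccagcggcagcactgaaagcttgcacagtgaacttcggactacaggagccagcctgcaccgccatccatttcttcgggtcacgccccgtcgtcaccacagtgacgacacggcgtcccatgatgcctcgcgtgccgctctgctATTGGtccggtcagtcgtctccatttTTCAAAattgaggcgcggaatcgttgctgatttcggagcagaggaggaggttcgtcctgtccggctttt
Cenpf: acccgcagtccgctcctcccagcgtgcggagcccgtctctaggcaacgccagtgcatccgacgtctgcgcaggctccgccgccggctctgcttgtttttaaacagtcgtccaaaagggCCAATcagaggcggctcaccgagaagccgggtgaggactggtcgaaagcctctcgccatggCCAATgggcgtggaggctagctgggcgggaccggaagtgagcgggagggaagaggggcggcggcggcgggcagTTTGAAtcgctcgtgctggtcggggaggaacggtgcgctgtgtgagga
Prc1: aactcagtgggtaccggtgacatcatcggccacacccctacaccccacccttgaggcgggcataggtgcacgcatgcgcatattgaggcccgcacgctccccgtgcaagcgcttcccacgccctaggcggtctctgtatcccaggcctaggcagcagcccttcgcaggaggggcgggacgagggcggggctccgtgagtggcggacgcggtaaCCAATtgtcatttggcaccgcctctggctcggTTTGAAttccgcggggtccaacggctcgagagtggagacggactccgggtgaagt
Cdk1: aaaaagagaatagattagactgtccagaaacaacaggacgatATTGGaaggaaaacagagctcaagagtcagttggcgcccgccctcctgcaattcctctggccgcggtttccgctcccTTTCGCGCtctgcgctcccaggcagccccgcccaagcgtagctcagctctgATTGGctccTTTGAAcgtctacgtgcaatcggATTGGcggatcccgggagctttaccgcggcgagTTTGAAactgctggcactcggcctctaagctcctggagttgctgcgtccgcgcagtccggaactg
Bub3: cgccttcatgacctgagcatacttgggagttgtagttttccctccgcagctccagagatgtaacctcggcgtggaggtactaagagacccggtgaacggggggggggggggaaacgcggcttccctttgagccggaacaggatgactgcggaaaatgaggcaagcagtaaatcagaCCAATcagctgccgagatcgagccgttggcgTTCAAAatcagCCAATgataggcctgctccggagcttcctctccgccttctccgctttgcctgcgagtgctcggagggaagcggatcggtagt
In these windows the Kif11 CHR begins 19 bases before the start site and its CCAAT box 45 bases before it. The corresponding distances for Prc1 are 5 and 37 bases. Cdk1 has a CHR match 71 and another 15 bases before the start site, 3 CCAAT boxes and the E2F letters. Bub3, one of the least variable of the 60 genes, has the same pair of motifs, with CCAAT boxes on both sides of a CHR match that begins 43 bases before the start site.

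Library totals over genes ran from 22330729 to 29975347 counts, and the least abundant of the 60 genes still had 76 counts or more in every library (the minimum is Troap), so that counting error was small. The sorted cells carried the follicle markers: Lgr5 stood at 288.8 to 539.5 CPM (counts scaled to a common library size), and 9 keratinocyte markers of the follicle summed to 18498 to 31947 CPM. A list of 14 leukocyte markers summed to 1.67 to 9.45 CPM, with 2 to 11 of the 14 at 0 and the pan-leukocyte gene Ptprc between 0 and 0.403 CPM, and 5 endothelial markers to 1.75 to 7.89 CPM. The 9 fibroblast markers summed to 268.9 to 327.9 CPM in Treg-sufficient and 267.9 to 346.2 CPM in Treg-depleted libraries, mostly Fbln1 (179.9 to 327.3 CPM), and Twist2 was at 0 in all 8. Some fibroblast genes at lower levels were lowest where the mitosis genes were: in the Treg-depleted libraries of experiment 1 Dcn stood at 2.30 and 3.0 CPM, against 7.21 to 84.0 CPM in the other 6, Col1a2 at 9.72 and 5.96 against 9.78 to 34.9 CPM, and Lum at 0 in both against 0.173 to 1.40 CPM. These 3 were singled out after their values were seen. Fbln1 went the other way, at 327.3 and 283.2 CPM in the same libraries against 179.9 to 249.5 CPM in the other 6. Col1a1, Col3a1, Pdgfra and Dpt overlapped the other 6 there. The part of any of these genes in the results was not tested. The 4 Treg genes summed to 5.64 to 36.9 CPM, mostly Ikzf2, and Foxp3 did not exceed 0.807 CPM. A pair of libraries stood apart. Xist, the RNA that coats the silent X chromosome in females, was at 2713 CPM in Treg-sufficient replicate 2 and 72.0 CPM in Treg-depleted replicate 2, and at most 2.26 CPM elsewhere, and both libraries belong to experiment 1. Treg-depleted replicate 2 also had counts in 18605 genes and Treg-sufficient replicate 3 in 19593, against 21720 to 23062 in the others. For the 60 genes, calls or medians without these libraries are given below for most comparisons. Other gene lists, the ratio of mitosis to S phase genes and most single genes are given with all 8 libraries only.

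The 60 genes varied together by several fold between libraries (in what follows, CPM of single genes and sums are on TMM-scaled library sizes). Their summed level was 6164 and 4475 CPM in the Treg-sufficient and 1305 and 2549 CPM in the Treg-depleted libraries of experiment 1. In experiment 2 it was 8280 and 6677 CPM in Treg-sufficient and 6278 and 7529 CPM in Treg-depleted libraries. The Treg-depleted libraries of experiment 1 were thus the lowest pair, and the highest library exceeded the lowest 6.34-fold. The 2 conditions overlapped over the whole series, as Treg-depleted replicate 4 was above 3 of the 4 Treg-sufficient libraries. For 57 of the 60 genes the lowest value was in Treg-depleted replicate 1, and for 49 the highest was in Treg-sufficient replicate 3. Mki67 and Top2a made up 23.3% of the sum over all libraries.

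**Figure D1:**
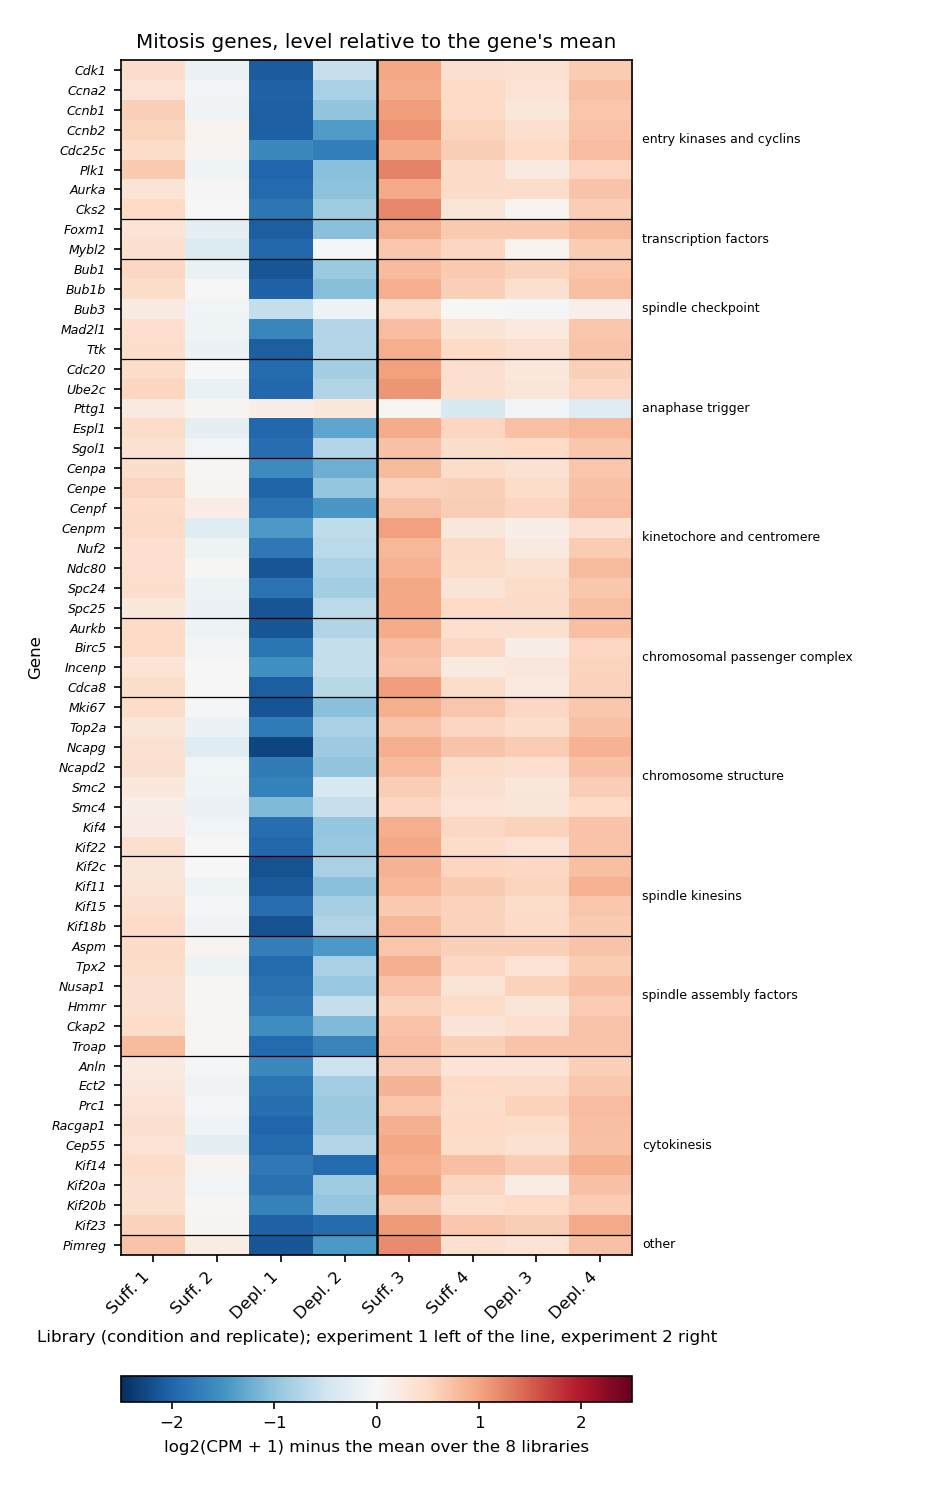
Each row is 1 of the 60 mitosis genes, grouped by role (right), and each column 1 library: Suff., Treg-sufficient and Depl., Treg-depleted, with the replicate number, experiment 1 left and experiment 2 right of the vertical line. Color gives log2(CPM + 1) minus the gene's mean over the 8 libraries, and the 2 Treg-depleted columns of experiment 1 are blue in nearly all rows, with Pttg1, Bub3 and Mybl2 (the last in replicate 2) as pale exceptions.

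Levels per length, as the mean CPM per kilobase of exon over the 8 libraries, ordered the genes from Mki67 (74.8), the proliferation antigen that coats mitotic chromosomes, through Cks2 (66.9), a small Cdk1-binding subunit, Top2a (56.1), the topoisomerase that untangles sister chromatids, Smc4 (47.0), a condensin subunit, and Ccnb2 (42.0), cyclin B2. At the other end of the same scale were Nuf2 (6.37) and Ndc80 (4.38), which form the microtubule-binding arm of the kinetochore, Troap (4.85), a spindle-associated protein, the phosphatase gene Cdc25c (4.77) and the kinesin gene Kif14 (3.31). For 59 of the 59 pairs of neighbours in this order the difference in mean was below the smaller SD of the pair over the 8 libraries. Since the genes rose and fell together, that SD holds shared movement and cannot decide how firm the order is. Across libraries the coefficient of variation of a gene's CPM had a median of 48.0%, from 16.5% (Pttg1) to 57.1% (Pimreg).

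Between all Treg-depleted and all Treg-sufficient libraries, 59 of the 60 genes were lower in the Treg-depleted group and 0 passed the test. The comparison asks whether the mitotic genes of traced follicle cells after injury differ with the presence of Treg cells. The median log2 fold change of the 60 was -0.82, against 0.00 over all genes tested, with a range from -1.34 (Pimreg) to 0.01 (Pttg1). In edgeR's quasi-likelihood test with a term for the experiment, the smallest Benjamini-Hochberg adjusted p was 0.686, and 0% of all genes were called. An unadjusted p under 0.05 was found for 36 of the 60 by edgeR (all lower), 26 by limma-voom and 56 by DESeq2. Of all genes it was found for 1175 by edgeR, of which 597 were lower, for 1183 by limma-voom and for 1493 by DESeq2. Neither of the other tools called any of the 60, while DESeq2 called 84 of all genes. For 0 of the 60 did all 4 Treg-depleted libraries lie below all 4 Treg-sufficient libraries, which was so for 1.05% of all genes. The median moved to -0.49 when Treg-depleted replicate 1 was left out and to -0.59 for Treg-sufficient replicate 1. With no term for the experiment it was -0.55. It moved the other way to -1.07 without Treg-sufficient replicate 4, to -1.01 without Treg-depleted replicate 4 and to -0.93 without Treg-sufficient replicate 3. Without both libraries with Xist reads it was -0.87. With no filter on low counts 58 of the 60 passed, and 820 of all genes. The cause was not tested.

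The genes with the smallest p in that comparison were Plk1, Ccnb2 and Cks2. Plk1, the polo kinase of mitotic entry and spindle assembly, stood at 49.0 and 28.4 CPM in the Treg-sufficient and 6.98 and 14.4 CPM in the Treg-depleted libraries of experiment 1, and at 74.1 and 43.1 against 36.0 and 44.7 CPM in experiment 2. Its log2 fold change between conditions was -1.19 (SE 0.364). Ccnb2 stood at 77.8 and 55.6 CPM in the Treg-sufficient and 11.9 and 19.0 CPM in the Treg-depleted libraries of experiment 1, and at 116 and 77.3 against 70.8 and 86.5 CPM in experiment 2, and its log2 fold change was -1.19 (SE 0.380). Cks2 stood at 56.4 and 39.5 CPM in the Treg-sufficient and 10.6 and 20.7 CPM in the Treg-depleted libraries of experiment 1, and at 92.4 and 48.5 against 41.8 and 60.6 CPM in experiment 2, with a log2 fold change of -1.03 (SE 0.342). In all 3 genes the Treg-depleted libraries were far below the Treg-sufficient ones in experiment 1 and overlapped them in experiment 2. The largest p belonged to Pttg1, Mybl2 and Smc2, described below.

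Within experiment 1 the mitosis genes were low in both Treg-depleted libraries, and 10 of the 60 passed the test, all lower. These were Kif14, Kif23, Cenpf, Cenpa, Aspm, Ckap2, Troap, Ccnb2, Cdc25c and Pimreg. In this direction 0.382% of all genes tested were called. The median log2 fold change of the 60 was -1.55, a 2.92-fold lower level, against 0.02 over all genes. An unadjusted p under 0.05 was found for 57 of the 60, all lower, against 1824 of the 16495, of which 1067 were lower. Both Treg-depleted libraries lay below both Treg-sufficient ones for 58 of the 60 genes (all but Mybl2 and Pttg1), as they did for 19% of all genes. For the same 58 genes they lay below the other 6 libraries of the series, as for 12.2% of all genes. The counts depended on the tool and on single libraries. DESeq2 called 55 of the 60 (721 of all genes), limma-voom 10 (82 of all genes) and edgeR with no filter on low counts 58 (1152 of all genes). Leaving out Treg-sufficient replicate 1, 2, 3 or 4 left 5, 6, 5 and 5 calls, and leaving out Treg-depleted replicate 1, 2, 3 or 4 left 5, 56, 0 and 5, where a lone library is assumed to vary like the other groups. The median was -1.10 without Treg-depleted replicate 1, -2.24 without Treg-depleted replicate 2 and -2.49 (56 calls) without both libraries with Xist reads.

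**Figure D2:**
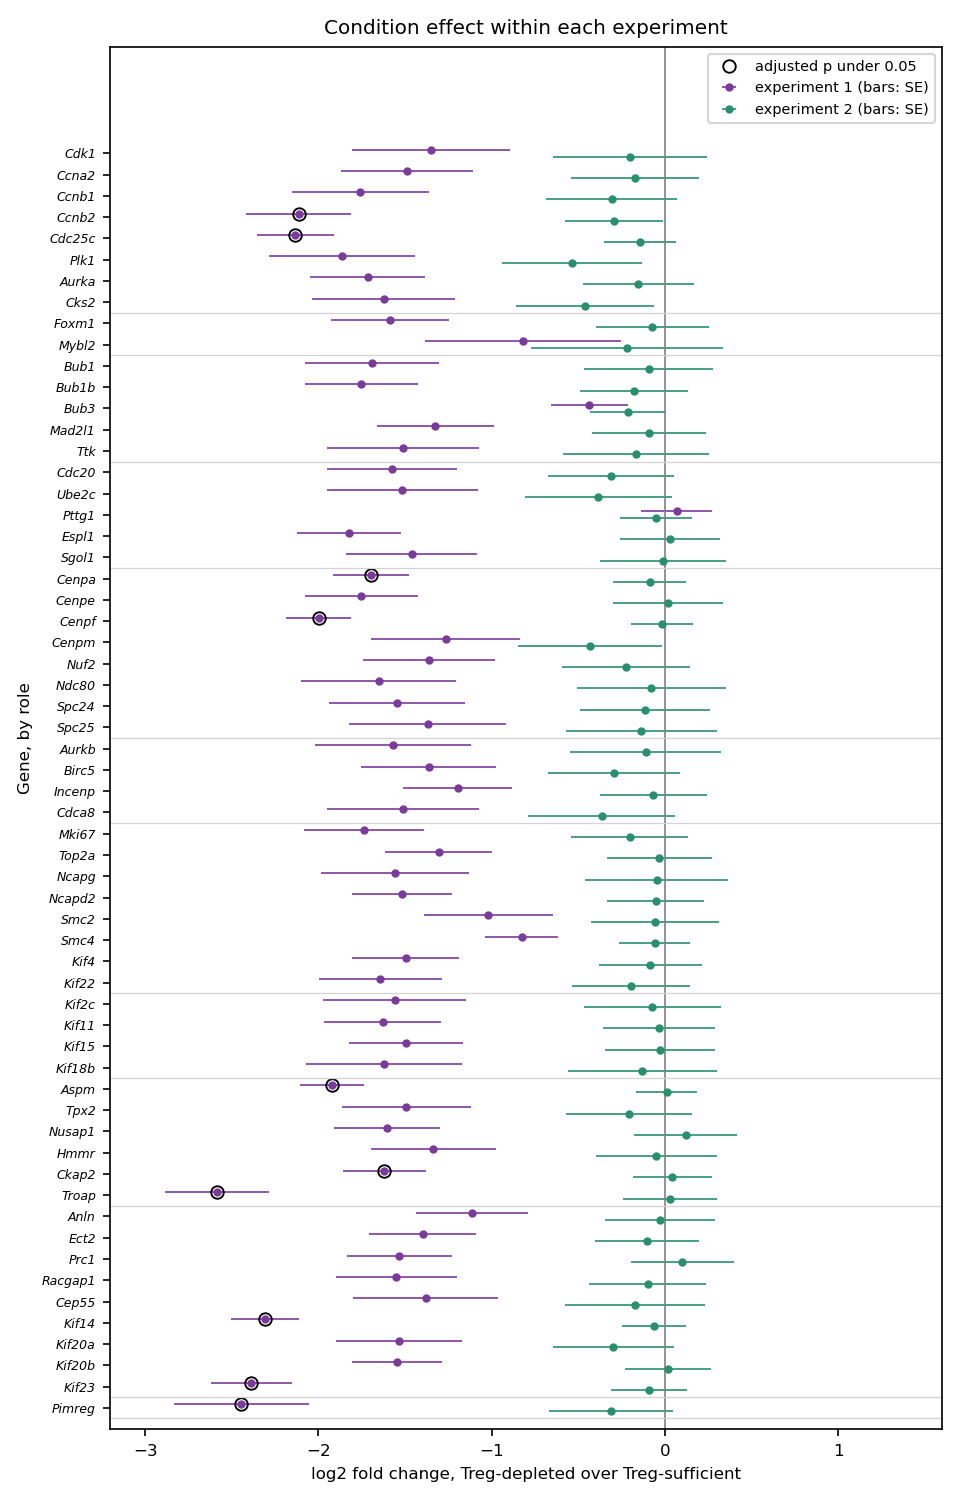
Points give the log2 fold change of Treg-depleted over Treg-sufficient for each of the 60 genes (rows, by role) within experiment 1 (purple) and experiment 2 (green), bars are standard errors from the edgeR fit, and open circles mark the 10 genes with an adjusted p under 0.05. In experiment 1 the points lie between -2.58 (Troap) and 0.07 (Pttg1), and in experiment 2 between -0.54 (Plk1) and 0.12 (Nusap1).

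Of the 8 kinases, cyclins and regulators of mitotic entry, all were lower in the Treg-depleted libraries of experiment 1 (median log2 fold change -1.74, range -2.13 to -1.35) and 2 passed the test. Cdc25c, the phosphatase that activates Cdk1, stood at 27.0 and 20.5 CPM in the Treg-sufficient and 5.64 and 5.16 CPM in the Treg-depleted libraries of experiment 1, and at 37.7 and 30.3 against 27.8 and 33.7 CPM in experiment 2. Both depleted libraries of experiment 1 were nearly equal, and the log2 fold change there was -2.13 (adjusted p = 0.0151, SE 0.223). Ccnb2, with the values above, had a log2 fold change of -2.11 (adjusted p = 0.0364, SE 0.301). Cdk1, the kinase itself, did not pass: it stood at 119.6 and 80.2 CPM in the Treg-sufficient and 20.1 and 58.6 CPM in the Treg-depleted libraries of experiment 1, and at 174 and 116 against 114 and 138 CPM in experiment 2. Its 2 Treg-depleted libraries of experiment 1 lay far apart, and the log2 fold change was -1.35 (adjusted p = 0.299, SE 0.457). Ccna2, which encodes cyclin A2 and acts in S phase as well as in G2, stood at 125 and 92.5 CPM in the Treg-sufficient and 23.1 and 54.6 CPM in the Treg-depleted libraries of experiment 1, and at 184 and 137 against 124 and 160.3 CPM in experiment 2. For Plk1, Ccna2, Cks2, Ccnb1 (cyclin B1) and Aurka (the spindle pole kinase Aurora A) the log2 fold changes of experiment 1 were -1.86, -1.49, -1.62, -1.76 and -1.72, none past the threshold.

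The 2 transcription factors of the program were both below the Treg-sufficient mean in experiment 1, and neither passed the test. Foxm1, which activates late G2 genes, stood at 86.0 and 57.3 CPM in the Treg-sufficient and 15.4 and 32.4 CPM in the Treg-depleted libraries of experiment 1, and at 128 and 108 against 107 and 118 CPM in experiment 2. Its level in the Treg-depleted libraries of experiment 1 was below all others, with a log2 fold change of -1.59 (adjusted p = 0.0959, SE 0.339). Mybl2, which encodes B-Myb and is itself induced around the start of S phase, stood at 42.8 and 25.3 CPM in the Treg-sufficient and 7.56 and 31.2 CPM in the Treg-depleted libraries of experiment 1, and at 52.0 and 47.5 against 34.6 and 51.0 CPM in experiment 2. In experiment 1 the Treg-depleted libraries of Mybl2 thus stood on either side of the lower Treg-sufficient one, at 22.2% and 91.8% of the Treg-sufficient mean, and the log2 fold change was -0.82 (adjusted p = 0.691, SE 0.565).

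Among the 5 spindle checkpoint genes none passed the test in experiment 1, with a median log2 fold change of -1.51. Bub1b, which encodes the checkpoint protein BubR1, stood at 118 and 85.6 CPM in the Treg-sufficient and 20.4 and 40.2 CPM in the Treg-depleted libraries of experiment 1, and at 162 and 129 against 114 and 144 CPM in experiment 2. Its log2 fold change was -1.75 (adjusted p = 0.066, SE 0.324). Bub3, the partner that brings Bub1 and BubR1 to kinetochores, stood at 118 and 95.7 CPM in the Treg-sufficient and 66.3 and 91.5 CPM in the Treg-depleted libraries of experiment 1, and at 140.3 and 99.3 against 98.0 and 109 CPM in experiment 2. Its depleted libraries of experiment 1 lay below the other 6, and the log2 fold change was -0.44 (adjusted p = 0.538, SE 0.222), the smallest of the checkpoint group. Bub1, Mad2l1 (the inhibitor of Cdc20) and the kinase gene Ttk had log2 fold changes of -1.69, -1.32 and -1.51.

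Of the 5 genes that trigger or guard anaphase, none passed the test. Cdc20, the activator of the APC/C, stood at 82.7 and 59.2 CPM in the Treg-sufficient and 15.1 and 32.7 CPM in the Treg-depleted libraries of experiment 1, and at 123 and 80.7 against 72.4 and 91.3 CPM in experiment 2. Espl1, which encodes separase, the protease that cleaves cohesin, stood at 74.7 and 45.9 CPM in the Treg-sufficient and 13.1 and 21.1 CPM in the Treg-depleted libraries of experiment 1, and at 104 and 78.9 against 89.7 and 96.6 CPM in experiment 2. Both were lowest in the Treg-depleted libraries of experiment 1, with log2 fold changes of -1.57 (SE 0.375) for Cdc20 and -1.82 (adjusted p = 0.0502, SE 0.301) for Espl1, just outside the threshold. Pttg1 (ENSMUSG00000020415, GRCm38 chromosome 11, 43420250 to 43426251, minus strand, protein-coding) encodes securin, the inhibitor of separase, and was the exception of the whole set. It stood at 25.4 and 22.8 CPM in the Treg-sufficient and 24.5 and 26.1 CPM in the Treg-depleted libraries of experiment 1, and at 22.6 and 16.5 against 20.7 and 17.1 CPM in experiment 2. The values of Pttg1 overlapped between the conditions in both experiments, the log2 fold change in experiment 1 was 0.07 (adjusted p = 0.961, SE 0.205), and leaving out either library with Xist reads turned its sign (-0.05 without the Treg-sufficient and -0.01 without the Treg-depleted one). Ube2c, the ubiquitin-conjugating partner of the APC/C, and Sgol1, the protector of centromeric cohesion, had log2 fold changes of -1.51 and -1.46.

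The 8 kinetochore and centromere genes were all lower in experiment 1 (median log2 fold change -1.60) and 2 passed. Cenpf (ENSMUSG00000026605, GRCm38 chromosome 1, 189640606 to 189688086, minus strand, protein-coding) is a large protein of the outer kinetochore. It stood at 152 and 124 CPM in the Treg-sufficient and 30.0 and 39.2 CPM in the Treg-depleted libraries of experiment 1, and at 183 and 169.9 against 159.6 and 189 CPM in experiment 2. Its log2 fold change was -2.0 (adjusted p = 0.0144, SE 0.186). Cenpa, the histone H3 variant that marks the centromere, stood at 111 and 84.3 CPM in the Treg-sufficient and 26.1 and 34.0 CPM in the Treg-depleted libraries of experiment 1, and at 142 and 111 against 106 and 132 CPM in experiment 2. The log2 fold change of Cenpa was -1.70 (adjusted p = 0.0263, SE 0.219). Cenpe, a kinesin that carries chromosomes to the spindle equator, stood at 117 and 84.3 CPM in the Treg-sufficient and 19.4 and 40.5 CPM in the Treg-depleted libraries of experiment 1, and at 121 and 122 against 110.5 and 135 CPM in experiment 2. It was low in the same libraries but with more spread, at -1.75 (adjusted p = 0.066, SE 0.327) on the log2 scale. The 4 subunits of the Ndc80 complex, Ndc80, Nuf2, Spc24 and Spc25, had log2 fold changes of -1.65, -1.36, -1.55 and -1.37, and Cenpm -1.26.

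None of the 4 genes of the chromosomal passenger complex, which corrects faulty attachments, passed the test (median log2 fold change -1.44). Incenp, its scaffold, stood at 106 and 83.3 CPM in the Treg-sufficient and 28.1 and 54.5 CPM in the Treg-depleted libraries of experiment 1, and at 137 and 97.5 against 101 and 123 CPM in experiment 2. Birc5, which encodes survivin, stood at 80.8 and 54.5 CPM in the Treg-sufficient and 15.3 and 37.5 CPM in the Treg-depleted libraries of experiment 1, and at 97.7 and 81.7 against 64.1 and 82.2 CPM in experiment 2. In both, Treg-depleted replicate 2 stood closer to the Treg-sufficient libraries than replicate 1 did, and the log2 fold changes of experiment 1 were -1.20 (SE 0.315) and -1.36 (SE 0.390). Aurkb, the kinase of the complex, and Cdca8 (borealin) had log2 fold changes of -1.57 and -1.51.

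The 8 genes of chromosome structure held the most abundant members, and none passed the test in experiment 1 (median log2 fold change -1.51). Mki67 stood at 862 and 620.2 CPM in the Treg-sufficient and 139.7 and 305 CPM in the Treg-depleted libraries of experiment 1, and at 1166 and 1024 against 896 and 1006 CPM in experiment 2. Its log2 fold change was -1.74 (adjusted p = 0.0781, SE 0.347). Top2a stood at 547 and 399 CPM in the Treg-sufficient and 131 and 252 CPM in the Treg-depleted libraries of experiment 1, and at 728 and 645 against 603 and 740.0 CPM in experiment 2, with a log2 fold change of -1.31 (adjusted p = 0.125, SE 0.309). The condensin genes spread widely: Ncapg and Ncapd2 were at -1.56 and -1.52 on the log2 scale, Smc2 at -1.02 and Smc4 at -0.83. Smc2, the core ATPase partner of Smc4, stood at 161 and 124 CPM in the Treg-sufficient and 40.5 and 100.3 CPM in the Treg-depleted libraries of experiment 1, and at 206 and 177 against 163 and 205 CPM in experiment 2. The chromosome-arm kinesins Kif4 and Kif22 had log2 fold changes of -1.50 and -1.64.

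The spindle was represented by 4 kinesins, none called, and 6 assembly factors, of which 3 were called. Kif11, the kinesin that pushes the spindle poles apart, stood at 138 and 101 CPM in the Treg-sufficient and 24.7 and 52.9 CPM in the Treg-depleted libraries of experiment 1, and at 197 and 174 against 162 and 199.5 CPM in experiment 2. Kif15, which can act in its place, stood at 94.8 and 69.1 CPM in the Treg-sufficient and 18.5 and 39.8 CPM in the Treg-depleted libraries of experiment 1, and at 113 and 107 against 99.0 and 117 CPM in experiment 2. Kif11, Kif15, Kif2c and Kif18b lay close together in experiment 1, at log2 fold changes between -1.63 and -1.50. Aspm, a protein of the spindle poles, stood at 94.8 and 70.5 CPM in the Treg-sufficient and 19.6 and 24.1 CPM in the Treg-depleted libraries of experiment 1, and at 109 and 102 against 102 and 111 CPM in experiment 2. In Aspm the depleted libraries of experiment 1 were close to each other, and the log2 fold change was -1.92 (adjusted p = 0.0144, SE 0.185). Troap (ENSMUSG00000032783, GRCm38 chromosome 15, 99074575 to 99083409, plus strand, protein-coding) had the lowest count of the 60 in any library. It stood at 24.4 and 14.1 CPM in the Treg-sufficient and 2.82 and 3.63 CPM in the Treg-depleted libraries of experiment 1, and at 24.0 and 21.3 against 23.1 and 23.2 CPM in experiment 2. That was the largest change of the 60, a log2 fold change of -2.58 (adjusted p = 0.0193, SE 0.298). Ckap2, a microtubule stabilizer, stood at 80.3 and 59.6 CPM in the Treg-sufficient and 19.2 and 26.4 CPM in the Treg-depleted libraries of experiment 1, and at 95.7 and 72.7 against 78.1 and 95.5 CPM in experiment 2. Its log2 fold change of -1.62 (adjusted p = 0.0378, SE 0.239) was close to that of Nusap1 (-1.60, SE 0.307), which did not pass. Tpx2, which activates Aurora A on the spindle, stood at 122 and 81.3 CPM in the Treg-sufficient and 22.2 and 50.3 CPM in the Treg-depleted libraries of experiment 1, and at 165 and 127 against 114 and 139 CPM in experiment 2, and the log2 fold changes of Tpx2 and Hmmr were -1.49 and -1.34.

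Of the 9 cytokinesis genes 2 passed the test, Kif14 and Kif23. Kif23 (ENSMUSG00000032254, GRCm38 chromosome 9, 61915905 to 61946774, minus strand, protein-coding) is the kinesin of the centralspindlin complex. It stood at 97.0 and 67.6 CPM in the Treg-sufficient and 15.1 and 16.4 CPM in the Treg-depleted libraries of experiment 1, and at 136 and 104 against 99.8 and 126 CPM in experiment 2. Both Treg-depleted libraries of experiment 1 were about equally low, and the log2 fold change was -2.39 (adjusted p = 0.0144, SE 0.233), or 5.23-fold lower. Kif14 (ENSMUSG00000041498, GRCm38 chromosome 1, 136466343 to 136531511, plus strand, protein-coding) acts with citron kinase at the midbody. It stood at 38.1 and 29.3 CPM in the Treg-sufficient and 7.22 and 6.36 CPM in the Treg-depleted libraries of experiment 1, and at 51.9 and 47.0 against 43.1 and 51.6 CPM in experiment 2. Kif14 had the smallest adjusted p of the 60, 0.0143, at a log2 fold change of -2.31 (SE 0.198). Racgap1, the other subunit of centralspindlin, stood at 137 and 96.9 CPM in the Treg-sufficient and 25.6 and 54.5 CPM in the Treg-depleted libraries of experiment 1, and at 192 and 146 against 142 and 174 CPM in experiment 2. Prc1, which bundles the midzone microtubules, stood at 146 and 109.8 CPM in the Treg-sufficient and 29.8 and 58.6 CPM in the Treg-depleted libraries of experiment 1, and at 182 and 155 against 168 and 194 CPM in experiment 2. For Racgap1 and Prc1 the second Treg-depleted library of experiment 1 was well above the first, and neither passed, at log2 fold changes of -1.55 (SE 0.349) and -1.53 (SE 0.303). Anln, Ect2, Cep55, Kif20a and Kif20b lay between -1.54 and -1.11. Pimreg, a mitotic regulator placed in no group, stood at 32.6 and 22.2 CPM in the Treg-sufficient and 3.64 and 6.50 CPM in the Treg-depleted libraries of experiment 1, and at 45.5 and 26.1 against 24.8 and 32.9 CPM in experiment 2, and passed the test at a log2 fold change of -2.44 (adjusted p = 0.046, SE 0.388).

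The 2 Treg-depleted libraries of experiment 1 were not equally low. As a percentage of the Treg-sufficient mean of the same experiment, the 60 genes had a median of 21.8% in replicate 1 (13.3% for Pimreg to 101.5% for Pttg1) and of 47.2% in replicate 2 (18.8% for Troap to 108.4% for Pttg1). In replicate 1, 57 of the 60 genes stood under 35%, and in replicate 2, 10 did. Replicate 1 was below replicate 2 for 58 genes. The ratio of replicate 1 to replicate 2 had a median of 0.500 and was lowest for Mybl2 (0.242) and 0.9 or more for Kif14, Kif23, Cdc25c and Pttg1. Among the 10 genes that passed the test it ran from 0.561 to 1.14, and the other 50 had a median of 0.466. The test itself favours genes whose replicates lie close together, so nothing is read from that difference. Treg-depleted replicate 2 is 1 of the libraries with Xist reads and has the fewest genes with counts; the part of either in its level was not tested.

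**Figure D3:**
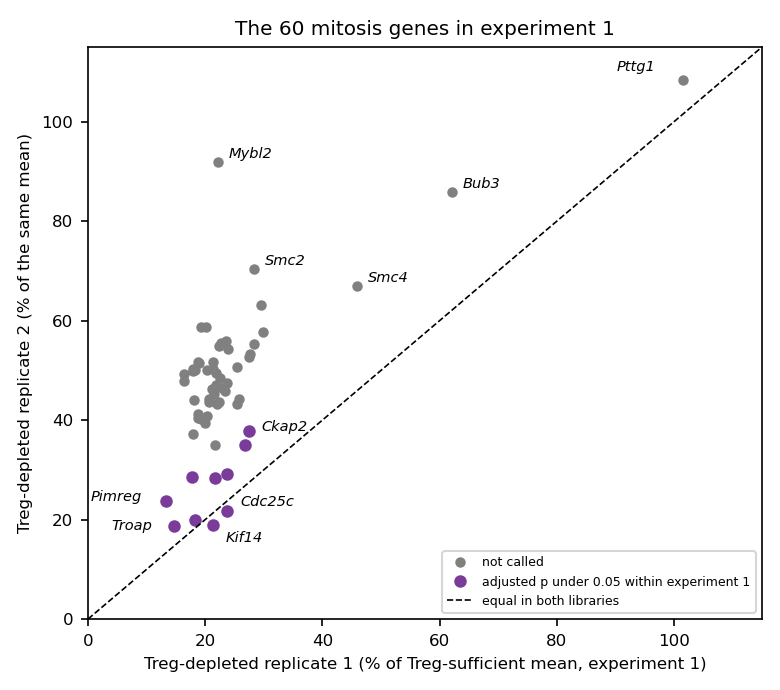
Each point is 1 of the 60 genes in experiment 1, with its level in Treg-depleted replicate 1 (horizontal axis) and replicate 2 (vertical axis) as a percentage of the mean of the 2 Treg-sufficient libraries of that experiment. Purple points are the 10 genes with an adjusted p under 0.05, and the dashed line marks equal levels in both libraries. Of the 60 genes 58 lie above it, with medians of 21.8% in replicate 1 and 47.2% in replicate 2; Mybl2, Bub3 and Pttg1 stand apart.

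Within experiment 2 the mitosis genes differed little between the conditions. None of the 60 was called by edgeR, limma-voom or DESeq2, none had an unadjusted p under 0.05 by any of them, and 0% of all genes were called by edgeR (288 with an unadjusted p under 0.05). The median log2 fold change was -0.10, against 0.00 over all genes, with 52 genes below 0 and 8 above. Treg-depleted replicate 3 stood at a median of 83.9% of the Treg-sufficient mean (59.3% for Cks2 to 105.9% for Pttg1) and replicate 4 at 100% (76.3% for Plk1 to 115.1% for Prc1). Both Treg-depleted libraries lay below both Treg-sufficient ones for 1 gene, Mki67, chosen here after its values were seen, and for 15.9% of all genes. The median and the split of signs depended on single libraries: the median was 0.06 without Treg-sufficient replicate 3 (48 genes above 0) and 0.00 without Treg-depleted replicate 3 (31 above 0). It was -0.28 without Treg-sufficient replicate 4 (59 below 0) and -0.25 without Treg-depleted replicate 4 (57 below 0).

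The difference between the effects of the 2 experiments was tested directly and no gene passed. The effect in experiment 2 minus that in experiment 1 had a median of 1.45 on the log2 scale over the 60 genes and was positive for 59 (all but Pttg1), against -0.01 over all genes. The smallest edgeR adjusted p was 0.135, for Kif14, whose difference was 2.25 (SE 0.267), and 0% of all genes were called. An unadjusted p under 0.05 was found for 45 of the 60, all positive, against 923 of all genes, of which 331 were negative. DESeq2 called 16 of the 60 (182 of all genes), limma-voom none and edgeR with no filter on low counts 55 (534 of all genes). The median difference was 0.97 without Treg-depleted replicate 1, 2.12 without Treg-depleted replicate 2 and 2.33 without both libraries with Xist reads.

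The experiments also differed in the level of the mitosis genes. Over both conditions, experiment 2 was higher for 59 of the 60 genes, and the median over the 60 was 1.21 on the log2 scale. By edgeR, an unadjusted p under 0.05 was found for 58 of the 60, of which 1 was lower in experiment 2. Of all 16495 genes it was found for 3633, of which 1745 were lower. None of the 60 was called by edgeR (smallest adjusted p 0.0618), while 1.62% of all genes were, and DESeq2 called 57 of the 60 (2167 of all genes). Leaving out Treg-sufficient replicate 1 gave 16 calls, and leaving out any other single library gave none. This comparison was split by condition after the data had been seen. Among Treg-sufficient libraries experiment 2 was higher by a median of 0.52. By edgeR 3 of the 60 had an unadjusted p under 0.05, against 1082 of all genes. None of the 60 was called by edgeR, limma-voom or DESeq2, and edgeR called 0% of all genes. That median was 0.78 without Treg-sufficient replicate 1, 0.24 without replicate 2, 0.29 without replicate 3 and 0.24 without both libraries with Xist reads. Among Treg-depleted libraries it was higher by a median of 1.93 and 46 of the 60 were called higher, against 3.4% of all genes. The last comparison shares the Treg-depleted libraries of experiment 1 with the comparison of conditions within that experiment, so that Kif14, for example, had a log2 difference of 2.80 between experiments in Treg-depleted libraries and of -2.31 between conditions in experiment 1. Without Treg-sufficient replicate 3 or 4 it gave 28 calls each, without Treg-depleted replicate 3 15 and without Treg-depleted replicate 4 5. Melanocyte markers moved with the experiment as well: the 5 of the list (Dct, Pmel, Tyrp1, Tyr and Mlana, none at 0 in any library) summed to 52.4 and 31.4 CPM in Treg-sufficient and 19.2 and 35.9 CPM in Treg-depleted libraries of experiment 1, and to 360.1 and 112.2 and to 151.3 and 166.8 CPM in experiment 2. Their part in the difference between experiments was not tested.

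Other genes of the cell cycle, from lists that hold none of the 60, were read in the same fits. Of 57 further mitosis genes, all 57 were lower in the Treg-depleted libraries of experiment 1 (median log2 fold change -1.23) and 7 passed the test: Dlgap5, Ska1, Nek2, Spag5, Parpbp, Iqgap3 and Ccnf. Dlgap5, a spindle protein, stood at 47.1 and 34.2 CPM in the Treg-sufficient and 10.1 and 13.7 CPM in the Treg-depleted libraries of experiment 1, and at 50.5 and 46.6 against 47.4 and 53.4 CPM in experiment 2. Its log2 fold change in experiment 1 was -1.78 (adjusted p = 0.0237, SE 0.220). Iqgap3, a scaffold of the actin cortex, stood at 65.1 and 51.2 CPM in the Treg-sufficient and 17.0 and 23.6 CPM in the Treg-depleted libraries of experiment 1, and at 81.2 and 74.6 against 80.0 and 93.5 CPM in experiment 2. The most abundant genes of the list, Hmgb2 and Hjurp, had smaller fold changes in experiment 1, at -1.11 and -0.62 on the log2 scale, and did not pass.

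Other genes that act in mitosis, which are known to be transcribed through much of the cycle, had medians close to that of all genes. The 15 genes of the APC/C list, which are core subunits and the activator gene Fzr1, had a median log2 fold change of -0.14 in experiment 1 (range -0.88 to 0.04). The 10 genes of cohesin and its loaders had one of -0.02 (range -0.29 to 0.13), with 0 called in either list. Anapc5, a subunit of the APC/C platform, stood at 397 and 348 CPM in the Treg-sufficient and 352 and 356 CPM in the Treg-depleted libraries of experiment 1, and at 432 and 406 against 408 and 408 CPM in experiment 2, and Smc1a, a ring subunit of cohesin, stood at 278 and 240.1 CPM in the Treg-sufficient and 241 and 234 CPM in the Treg-depleted libraries of experiment 1, and at 319 and 297 against 278 and 312 CPM in experiment 2. Rad21, the cohesin subunit that separase cuts, had a log2 fold change of -0.29, and Anapc1 of -0.10. The 12 genes of MuvB, the pocket proteins and their partners, which assemble the complexes that repress and activate genes of mitosis, had a median of -0.09 and 0 called. They ranged from -0.71 to 0.17, with -0.30 for the histone-binding subunit Rbbp4 and -0.36 for the E2F partner Tfdp1.

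The 35 genes of S phase were lower in the Treg-depleted libraries of experiment 1 too, with a median closer to 0 than that of the 60 genes, and none passed the test. All 35 had a negative log2 fold change (median -0.76), 12 with an unadjusted p under 0.05. Mcm6, a subunit of the replicative helicase, stood at 323 and 218 CPM in the Treg-sufficient and 117 and 172 CPM in the Treg-depleted libraries of experiment 1, and at 436 and 354 against 319 and 374 CPM in experiment 2, and Rrm1, the large subunit of ribonucleotide reductase, stood at 308 and 237 CPM in the Treg-sufficient and 101 and 207 CPM in the Treg-depleted libraries of experiment 1, and at 397 and 323 against 290.4 and 368 CPM in experiment 2. As a percentage of the Treg-sufficient mean, the S phase genes had a median of 37.4% in Treg-depleted replicate 1 and 80.3% in replicate 2, where the 60 mitosis genes had 21.8% and 47.2%. The summed level of the 35 genes was 3654 and 2575 CPM in Treg-sufficient and 1180 and 2557 CPM in Treg-depleted libraries of experiment 1, so that Treg-depleted replicate 2 nearly equalled Treg-sufficient replicate 2. In experiment 2 it was 4815 and 3717 CPM in Treg-sufficient and 3356 and 4247 CPM in Treg-depleted libraries.

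The ratio of the 2 sums, mitosis over S phase, was 1.69 and 1.74 in the Treg-sufficient and 1.11 and 0.997 in the Treg-depleted libraries of experiment 1. In experiment 2 it was 1.72 and 1.80 in Treg-sufficient and 1.87 and 1.77 in Treg-depleted libraries. The Treg-depleted libraries of experiment 1 were apart from the other 6, which lay between 1.69 and 1.87 although their mitosis sums differed widely. The ratio is a description of the lists and was not tested. Without Mki67 and Top2a it was 0.877 and 0.779 in those libraries and 1.30 to 1.42 in the other 6. The ratio of the 57 further mitosis genes to the S phase genes did not separate the libraries in this way, at 1.17 and 0.777 in the Treg-depleted libraries of experiment 1 and 0.937 to 1.09 in the other 6.

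**Figure D4:**
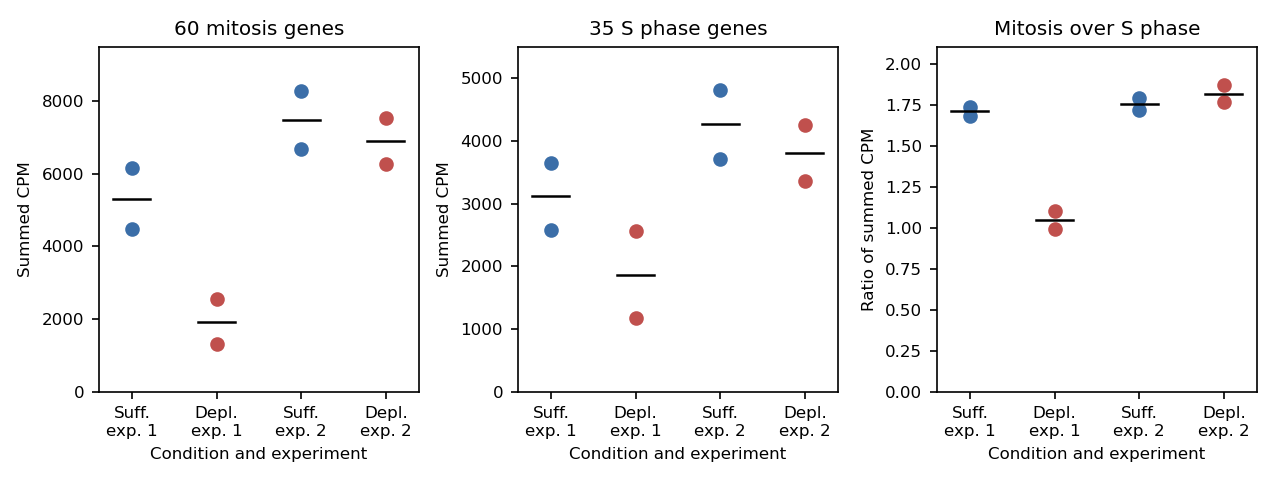
Points are single libraries and lines the mean of 2 libraries, by condition (blue, Treg-sufficient, Suff.; red, Treg-depleted, Depl.) and experiment. The summed CPM of the 60 mitosis genes (left) and of 35 S phase genes (middle) and their ratio (right) are shown from 0; the ratio is 1.11 and 0.997 in the Treg-depleted libraries of experiment 1 and 1.69 to 1.87 in the other 6.

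Of 12 genes tied to arrest or exit from the cycle, 0 were called in experiment 1 (median log2 fold change -0.17). Btg2, an antiproliferative gene induced by p53 and by growth signals, stood at 264 and 77.0 CPM in the Treg-sufficient and 1619 and 769 CPM in the Treg-depleted libraries of experiment 1, and at 197 and 289 against 405 and 345 CPM in experiment 2. Both Treg-depleted libraries of experiment 1 were above the other 6. The log2 fold change against the Treg-sufficient libraries of experiment 1 was 2.81 (SE 0.584) and did not pass the test (adjusted p = 0.0881). Btg1, its relative, stood at 241 and 290.0 CPM in the Treg-sufficient and 459 and 362 CPM in the Treg-depleted libraries of experiment 1, and at 263 and 271 against 299 and 271 CPM in experiment 2, with a log2 fold change of 0.63 (adjusted p = 0.174). The Cdk inhibitor genes Cdkn1a (p21) and Cdkn1b (p27) had log2 fold changes of -0.24 and -0.23, and Cdkn2c, the inhibitor p18, one of -1.62 (adjusted p = 0.0502), in the direction of the mitosis genes.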

How the data were processed

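The labels describe 8 libraries of sorted Lgr5-traced cells, 4 per condition and 2 per condition in each experiment. The authors deposited raw read counts per gene, with no normalization. Per the labels' protocols, the kit was TruSeq Stranded mRNA, and the submitters' processing notes name TopHat2 (version 2), SAMtools, HTSeq, DESeq2 and the build GRCm38.p4, without the role of each. Whether counting used strand is not given in the sources used here. In all, the table held 46078 genes and 5 tallies of uncounted reads, which entered neither library sizes nor tests. Among the reads listed, 6.63 to 10.8% fell in no gene, 2.72 to 3.01% in several genes and 26.2 to 30.6% aligned to several places, so that members with near-identical copies elsewhere may be undercounted. Reads of overlapping genes were likewise not assigned.

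Symbols, coordinates and exon lengths were taken from GENCODE M21 (GRCm38), a release that named 45143 of the identifiers. Tests used edgeR 4.0.16 under R 4.3.3 (filterByExpr with a minimum count of 10, TMM factors, quasi-likelihood F-test), with Benjamini-Hochberg adjustment over 16495 genes and a threshold of 0.05. Conditions and experiments were compared in a model with both terms (5 residual degrees of freedom), and effects within experiments, their difference and the experiments within each condition in a model of 4 groups (4 residual degrees of freedom). The steps were tested on simulated counts. Alternatives were DESeq2 1.42.0, limma-voom (limma 3.58.1), other size factors, other filters, no experiment term, a replicate block and leaving out libraries. Levels are CPM on TMM-scaled library sizes, and marker sums and Xist use unscaled totals. Intervals of counting error are not given, since the SE covers the spread between libraries.

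The 60 genes, their role groups and the other lists were chosen with earlier results of these data known. Values in all 8 libraries are given for the 2 genes with the highest mean CPM per role group. They are also given for the genes with the 3 smallest and 3 largest p between conditions and for any gene called in a comparison of conditions. From each other list the 2 highest genes and up to 2 called genes in each direction are named. All called genes of the further mitosis list are named as well. Cdkn1a, Cdkn1b and Cdkn2c were named outside this rule.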

Additional observations from a re-analysis of the deposited data

Results flagged for a closer look

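Within the 4 libraries of each condition, the lowest or highest value of each of the 60 genes, of the mitosis and S phase sums and of their ratio was compared with the others. The measure was Dixon's gap ratio at its 95% critical value, in 126 checks. Each group pooled both experiments and the genes moved together, so the usual rate of about 1 in 20 by chance does not apply. In the Treg-depleted group most genes were low in experiment 1 and high in experiment 2, where this ratio can hardly mark a library. The lack of marks in that group therefore says nothing about outliers. A single value was marked: Cenpe in the Treg-sufficient group, where replicate 2 stood at 84.26 CPM and the other 3 libraries at 117.0 to 121.5 CPM. Treg-sufficient replicate 2 was the lowest Treg-sufficient library for most of the 60 genes and is the library with the highest Xist level.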

How the results depend on the processing

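Between conditions edgeR called 0 genes, DESeq2 84 and edgeR with no filter on low counts 820, of which 58 were among the 60. In experiment 1 the 100 calls (10 of the 60) became 721 (55) with DESeq2, 1152 (58) with no filter and 487 (56) without both libraries with Xist reads. Leaving out 1 library in turn gave 0 to 442 calls there, 0 to 56 of the 60, and a median of the 60 from -2.235 to -1.105; without the libraries with Xist reads the median was -2.489. In experiment 2, 0 calls became 1 with DESeq2 and 132 with no filter. For the difference between the 2 effects, 0 calls became 182 (16 of the 60) with DESeq2, 534 (55) with no filter, 89 (25) without the libraries with Xist reads and 0 to 9 leaving out 1 library. Its median ran from 0.970 to 2.116 leaving out 1 library and was 2.329 without the libraries with Xist reads. Between experiments, 268 calls (0 of the 60) became 2167 (57) with DESeq2, 2443 (58) with no filter, 2 without the libraries with Xist reads and 0 to 651 (0 to 16) leaving out 1 library. Among Treg-sufficient libraries 0 calls became 125 with DESeq2, 1 with DESeq2 size factors, 1 with limma-voom, 547 (3 of the 60) with no filter and 0 to 6 leaving out 1 library. Among Treg-depleted libraries 842 calls (46 of the 60) became 1907 with DESeq2, 2279 with no filter and 20 to 1542 (5 to 57) leaving out 1 library, and the median of 1.929 ran from 1.490 to 2.620 and was 2.621 without the libraries with Xist reads. The cause of these shifts was not tested. DESeq2 size factors, upper-quartile factors and a mean count of at least 50 moved no median of the 60 by as much as the SD of the replicates. Among the genes named with values in all libraries, and in the comparisons between conditions, within experiment 1 and of the 2 effects, the sign of a fold change turned for Pttg1, Bub3 and Mybl2. In experiment 2, where single genes were not followed, the 8 of 60 genes above 0 became 48 when Treg-sufficient replicate 3 was left out and 31 when it was Treg-depleted replicate 3, against 1 and 3 for the replicates numbered 4 of the same groups. For Pttg1 between conditions it was -0.001 with no filter, -0.068 without the libraries with Xist reads and ran from -0.065 to 0.118 leaving out 1 library (below 0 without Treg-sufficient replicate 2 or 4 or Treg-depleted replicate 2 or 3). For Pttg1 in experiment 1 it ran from -0.045 to 0.150 leaving out 1 library (below 0 without either library with Xist reads) and was -0.100 without both. The difference between the 2 effects ran from -0.327 to 0.126 for Pttg1 leaving out 1 library (above 0 without Treg-sufficient replicate 3 or Treg-depleted replicate 4) and was 0.048 without the libraries with Xist reads. It ran from -0.001 (without Treg-sufficient replicate 4) to 0.508 for Bub3 and from -0.068 (without Treg-depleted replicate 1) to 1.989 for Mybl2.

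The replicate numbers follow the letters in the titles, and nothing in the labels ties same-numbered libraries to each other. Within experiments their deviations over genes were correlated at -0.179 in experiment 1 and -0.183 in experiment 2, and for 1 of 4 numbers the same-numbered library of the other condition was the closest. With the replicate block in place of the experiment the median of the 60 between conditions was -0.851, with 0 of the 60 and 0 genes called.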
